A study of Mus musculus with 7 samples.

Results

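Ductal cells of the WT mouse pancreas were taken as the cells that the deposited annotation places in the cluster named Ductal. There were 1374 of them among 10653 WT cells, 753 in WT mouse 1 and 621 in WT mouse 2, and the series as a whole held 58473 cells. The pancreata of 7 C57BL/6 mice aged 2 months were dissociated and profiled with the 10x Genomics 3′ assay, 1 library a mouse, to compare reprogrammed, normal and damaged tissue. The 2 WT mice and 3 i4F mice (genotype i4F-B, which carries the transactivator rtTA and an inducible cassette of the 4 OSKM reprogramming factors) drank doxycycline at 1 mg/ml for 7 days. The 2 caerulein mice were labelled wild type and received 100 µg/kg of caerulein, an analogue of cholecystokinin that causes pancreatitis, in 7 injections a day on 2 days. Their labels name no doxycycline, so that the effect of caerulein and that of drinking no doxycycline cannot be told apart. WT mice are separate animals, but n is 2, and cells of 1 mouse are not replicates.

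Ducts collect the digestive enzymes of the acini and carry them to the gut. Ductal cells line them as a single epithelial layer joined by tight junctions, built on keratins, and secrete the bicarbonate-rich fluid of the pancreas through the chloride and bicarbonate channel CFTR. The transcription factor SOX9 marks and maintains this lineage, and each duct cell carries a primary cilium that senses flow.

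The label was first checked against 5 markers, Krt19 and Krt7 (keratins of simple epithelia), Sox9, Cftr and Epcam (an epithelial adhesion molecule). Values are UMIs, that is captured mRNA molecules, summed over the cells of a cluster in 1 mouse and scaled to that cluster's total as CPM, the usual unit for such sums. They are not divided by transcript length, so levels are compared within a gene only. Krt19 had 1126 CPM in the ductal cells of mouse 1 and 911 CPM in those of mouse 2, against 66.0 and 33.3 CPM in all other WT cells. Sox9 had 475 and 510 CPM against 19.5 and 20.1 CPM. Cftr had 77.4 and 52.1 CPM against 1.19 and 0.365 CPM, and no UMI in acinar or stellate cells. The highest other cluster for Krt19 was the one named Mesothelium, at 877 and 832 CPM. Krt7 stood at 190 and 243 CPM in ductal cells, below the 321 and 289 CPM of Mesothelium, and an endocrine cluster (Endocrine B, one of 2 whose Greek letters are lost in the file) had 279 and 231 CPM. Krt7 was thus not highest in ductal cells, whereas Sox9, Cftr and Epcam were, in both mice. Epcam differed between the mice, with 287 CPM in mouse 1 and 1525 CPM in mouse 2. All 5 markers met the rule for enriched genes given further on, and the name was kept.

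**Figure D1:**
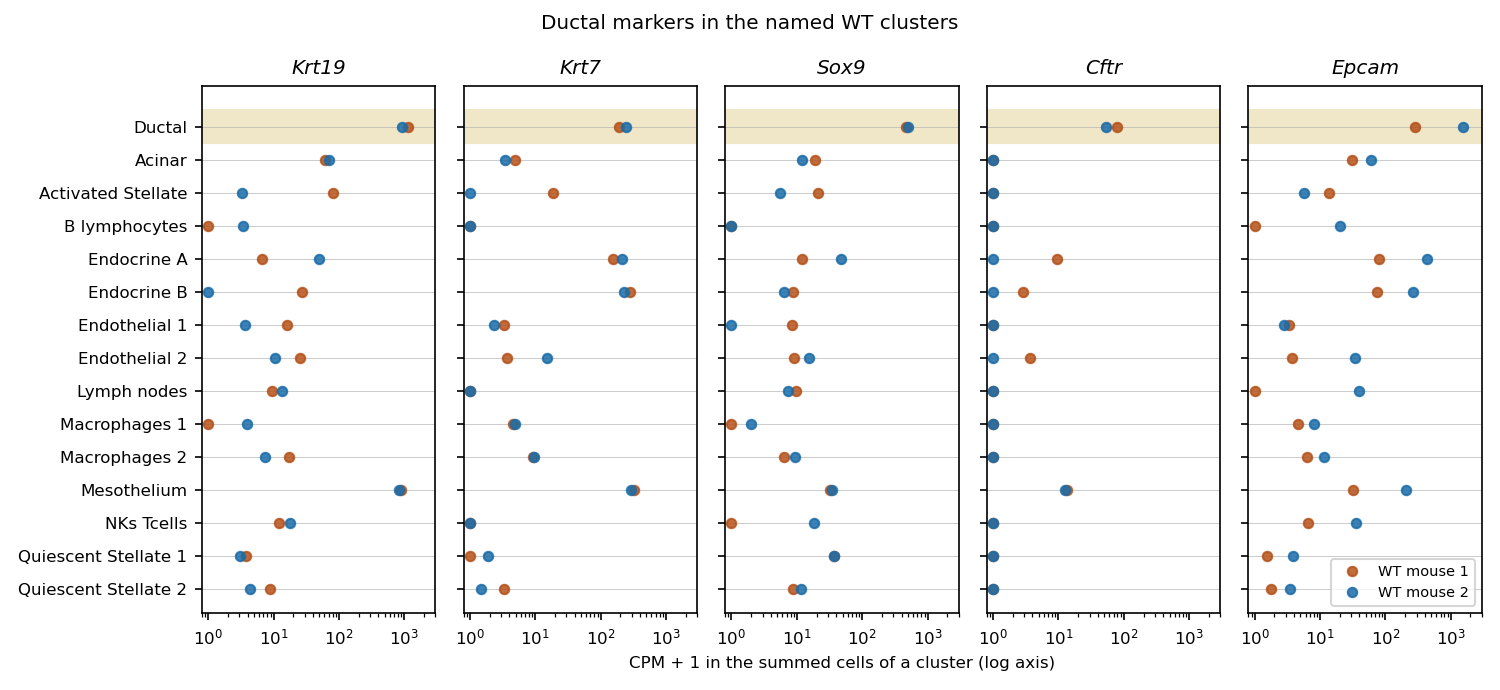
CPM plus 1 (log axis) of the 5 ductal markers in the summed cells of each named WT cluster, 1 point for each WT mouse. Sox9 and Cftr are highest in the ductal row in both mice, and Krt7 is at a like level in Mesothelium and in both endocrine clusters (Endocrine A and Endocrine B).

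Krt19 lies on chromosome 11 (100140810 to 100148665, minus strand), Sox9 on chromosome 11 (112782224 to 112787760), Krt7 on chromosome 15 (101411043 to 101430313), Cftr on chromosome 6 (18170687 to 18322768) and Epcam on chromosome 17 (87635979 to 87651129) of GRCm38, all as protein-coding genes of GENCODE release M21.

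Ductal cells were deeper than the other cells of both WT libraries, with a median of 5396 and 4624 UMIs a cell against 1830 and 2561 UMIs in the other cells, and 2275 and 2051 genes. They held 35.3% and 20.3% of all UMIs of their libraries. Their shares of cells were 17.4% in mouse 1 (exact Clopper-Pearson 95% interval 16.3% to 18.6%) and 9.82% in mouse 2 (9.09% to 10.6%), intervals that cover counting error only. No ductal barcode was shared between the 2 WT libraries, and 9 barcodes of all WT cells were. UMIs of other cell types were present in ductal cells. The 25 acinar genes with a UMI summed to 1321 and 1431 CPM there against 10218 and 8835 CPM in the other cells, and 21 stellate and mesenchymal genes to 1321 and 1660 CPM against 36898 and 39581 CPM. The 22 myeloid genes summed to 629 and 616 CPM against 7067 and 9320 CPM, and the 20 lymphoid genes to 4.89 and 22.4 CPM against 3806 and 6747 CPM. Many defining acinar genes, Ins1, Ins2 and Gcg are not listed in the tables used here.

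Genes enriched in ductal cells were defined by 3 conditions in each WT mouse: at least 50 CPM in the ductal sum, a UMI in at least 10% of ductal cells, and at least 4-fold over the sum of all other WT cells with 1 CPM added. Of the 27932 genes with a UMI in WT cells, 2852 reached the level and 286 were enriched, which is 1.02% of the former and 10.0% of the latter. The clusters were built from the same genes, so these are descriptions and no test was made. Sox4 (smaller log2 ratio of the 2 mice 2.01) lay just inside the 4-fold limit and Gramd3 (2.00, rounded up) just outside it. For 80 of the 286 genes the next highest cluster was Mesothelium. In 59 of the 286 the ductal level was at least 4-fold above every other named cluster in both mice, among them Spp1, Krt8, Krt18, Pkhd1, Cftr, Sox9, Cldn3, Cldn7 and the growth factor receptors Fgfr2 and Fgfr3.

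The 30 genes with the largest ratios were led by Tstd1, a sulfurtransferase, with 626 CPM in mouse 1 and 879 CPM in mouse 2 against 6.61 and 7.00 CPM in the other cells. Spp1 encodes osteopontin, a secreted glycoprotein of duct cells, and had 22758 and 19766 CPM against 299 and 139 CPM. Dcdc2a, a doublecortin-domain protein of the cilium, had 955 and 846 CPM against 14.6 and 6.14 CPM. Both mice showed these 3 genes far above the other cells. Pigr, the receptor that carries immunoglobulin A across epithelia, had 309 and 335 CPM against 4.22 and 2.86 CPM. Ambp had 734 and 695 CPM against 12.3 and 8.15 CPM, and Crp 99.2 and 69.3 CPM against 0.459 and 0.426 CPM. Both encode plasma proteins best known from the liver. Slc28a3 (a nucleoside transporter) had 224 and 131 CPM and Slc5a1 (the sodium-glucose cotransporter) 144 and 96.7 CPM. Krt17, a keratin of stratified and stressed epithelia, had 1659 and 693 CPM, and Ankrd1, a target gene of the YAP pathway, 1374 and 896 CPM, against under 20 CPM each in the other cells. The other leading genes were Krt23, Krt8, Pkhd1, ccdc198, Wfdc2, Wfdc3, Wfdc15b, Ppp1r1b, Cyp4f14, Cldn4, Cldn8, 1700049E15Rik, Mmd2, Shank2, Dsg2, Itgb6, Ehf, Apoc1, Sfn and Kcne3.

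**Figure D2:**
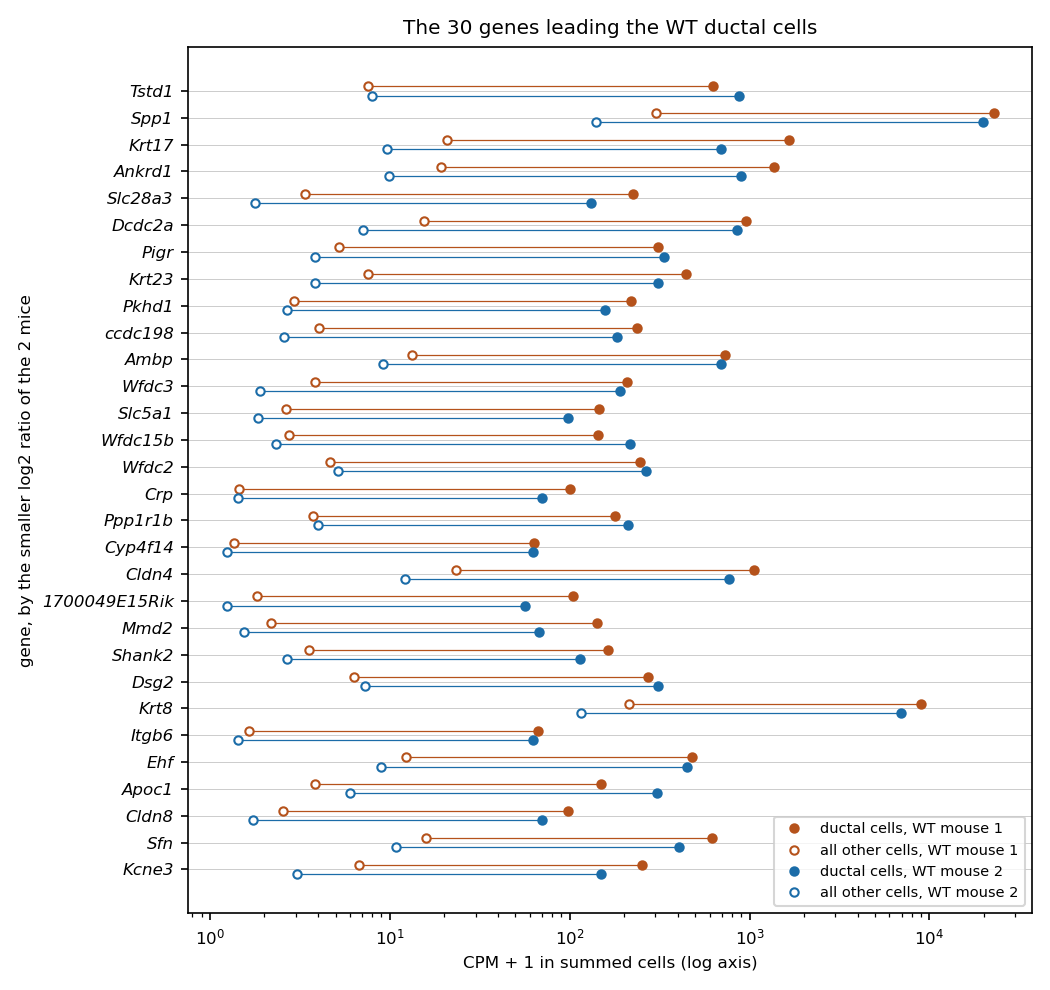
CPM plus 1 (log axis) of the 30 leading genes in the summed ductal cells (filled points) and in all other WT cells (open points), for each WT mouse. In every gene the filled points of both mice lie right of both open points, for Spp1 at 22758 and 19766 CPM against 299 and 139 CPM.

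The same genes were looked at in the ductal clusters of the 5 other mice, which the rule did not use. Of the 30 leading genes, 27 were at least 4-fold above the other cells in all 5 mice, and of the 286 enriched genes 170 were (59.4%), where 1.24% of the 27932 genes were. These ductal clusters were also drawn from gene expression, so the counts describe how alike the clusters are.

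Pkhd1 encodes fibrocystin, a protein of the primary cilium that is lost in recessive polycystic kidney disease. It lies on chromosome 1 (20057779 to 20618064, minus strand) and had 218 and 157 CPM in ductal cells against 1.93 and 1.70 CPM. Of the 286 enriched genes, 202 had a RefSeq promoter entry, which runs from 250 bases before to 50 bases after the start of the gene in GRCm38.p6, beside 27025 genes in the RefSeq set. The letters GGAATG, read on both strands and known as the core of TEAD sites, were in 51 of these 202 promoters (25.2%), beside 16.6% of the RefSeq set and 15.03% of the genes at the level, but in only 3 of the 23 promoters of the leading genes (13.0%). Among the enriched genes GTTGCC was in 18.3%, TATAAA in 16.3% and CCAAT in 45.0%, beside 14.1%, 15.7% and 41.1% of the RefSeq set. Of the genes at the level 14.9%, 10.2% and 43.3% held them. A match is a description of the letters and not a bound site.

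In this and the following lists, counts of enriched genes stand beside 1.02% of all genes and 10.0% of genes at the level. Tight junction and keratin genes were mostly higher in ductal cells. Of 33 such genes with a UMI, 31 were higher in both mice, as were 31.7% of all 27932 genes with a UMI, and 20 were enriched, and the median log2 ratio was 3.62 in mouse 1 and 3.83 in mouse 2, where the medians over all genes at the level were 0.36 and 0.39. Krt8 and Krt18, the paired keratins of simple epithelia, had 8938 and 6943 CPM and 10093 and 10108 CPM. The claudins, which set the permeability of tight junctions, were represented by Cldn3 (1701 and 1647 CPM), Cldn4 (1060 and 767 CPM), Cldn7 (827 and 998 CPM), Cldn10 (588 and 553 CPM) and Cldn6 (93.9 and 76.4 CPM). Cdh1, which encodes E-cadherin, had 359 and 260 CPM. The general junction genes Tjp1 (log2 ratio 0.81 in both mice) and Jup (0.79 and 0.89) were not enriched, and Krt20 had under 1 CPM in both mice.

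Genes of fluid and bicarbonate secretion were mostly under the level. Of 41 with a UMI, 9 reached it and 8 were enriched, where 10.0% of all genes at the level were. The median log2 ratios of the 41 genes were 0.67 and 0.32. Beside Cftr the enriched genes included Car2 (carbonic anhydrase 2, which makes bicarbonate, 92.9 and 89.6 CPM), Slc9a3r1 (a scaffold of CFTR, 294 and 306 CPM), the sodium pump subunit Atp1b1 (844 and 973 CPM), the pump's modulator Fxyd3 (322 and 586 CPM) and the potassium channel pair Kcnq1 (116 and 77.4 CPM) and Kcne3 (252 and 148 CPM). The bicarbonate importer Slc4a4 had 69.8 and 42.7 CPM, a log2 ratio of 1.58 and 1.48 over the other cells. The secretin receptor Sctr had 25.6 and 14.8 CPM and the water channel Aqp5 9.95 and 18.4 CPM, both with log2 ratios above 2.8 but under the level of 50 CPM. Car2, Slc4a4 and Sctr each had a higher mean over the 2 mice in another cluster than in ductal cells. It was 94.6 CPM of Car2 in NKs_Tcells, 88.8 CPM of Slc4a4 in Mesothelium and 33.4 CPM of Sctr in Activated_Pancreatic_Stellate. For Cftr, Atp1b1, Fxyd3 and Kcne3 the mean of every other cluster was lower. Aqp1 and Car4 were lower in ductal cells than in the other cells, by log2 ratios of -3.50 and -3.47 for Aqp1 and -3.94 and -4.98 for Car4, and both were highest in endothelial clusters. The apical chloride exchangers Slc26a3 and Slc26a6 had under 1 CPM in each mouse.

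Of 40 transcription factors of the pancreatic epithelium, 17 reached the level and 12 were enriched, where 10.0% of all genes at the level were. The median log2 ratios of the 40 genes were 1.41 and 1.33. The enriched factors included Sox9, Prox1, Hhex, Foxa2, Gata6, Glis3, Ehf, Elf3, Klf5, Sox4 and Sox6. Ehf and Elf3, epithelial ETS factors, had 476 and 451 CPM and 404 and 320 CPM. Hhex differed between the mice, with 162 and 365 CPM. Onecut1, a factor of the embryonic pancreas, had 46.9 and 58.5 CPM and a log2 ratio of 4.87 and 5.38, and failed only the 50 CPM level in mouse 1. Pdx1 had 32.9 and 40.1 CPM and Nkx6-1 21.8 and 22.2 CPM, both highest in an endocrine cluster. The acinar factor Ptf1a had 0.675 and 0.955 CPM, and Neurog3, which starts endocrine differentiation, had no UMI in any WT ductal cell.

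Of 28 cilium genes, Pkhd1, Dcdc2a and Foxj1 were enriched, and 22 were higher in ductal cells in both mice, against 31.7% of all genes (median log2 ratio 0.99 and 1.07). Ift88, a transport protein of all cilia, had 28.7 and 31.3 CPM with log2 ratios of 1.34 and 1.33. Foxj1, the master regulator of motile cilia, had 51.3 and 64.2 CPM against 2.30 and 1.58 CPM, and its UMIs were uneven among ductal cells, as given further on.

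Of 40 genes of mucosal secretion and defence, 12 were enriched and 7 were at least 4-fold lower, where 486 of the 2734 genes with at least 50 CPM in the other cells (17.8%) were lower by that much. Clu, a secreted chaperone, had 10552 and 10925 CPM in ductal cells and was next highest in acinar cells. Lcn2, an iron-sequestering antibacterial protein, had 532 and 321 CPM, and the protease inhibitors Wfdc2 246 and 267 CPM, Wfdc15b 143 and 215 CPM and Wfdc18 70.2 and 96.5 CPM. The membrane mucin Muc1 had 190 and 164 CPM. Lcn2 and Muc1 were not highest in ductal cells. The mean over the 2 mice was 1654 CPM of Lcn2 in the cluster named Lymph_nodes and 288 CPM of Muc1 in acinar cells. For Wfdc2, Wfdc15b and Wfdc18 the mean of every other cluster was lower than the ductal values. Muc4, Tff3 and Serpina1a had no UMI. Mmp7, a metalloprotease that activates defensins, had 29.5 and 29.6 CPM in ductal cells against 0.275 and 0.0608 CPM in the other cells.

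Of 36 genes of Notch, Wnt and YAP signalling and of reported progenitor states, 13 reached the level, where 10.0% of all genes at the level were enriched. In this list 5 were enriched: Ankrd1, Cd24a, Prom1, Tm4sf4 and Alcam. Cd24a had 1040 and 685 CPM, Prom1 230 and 150 CPM and Tm4sf4 2157 and 1997 CPM. Cyr61, another YAP target, had 3171 and 1648 CPM and passed the 4-fold limit in mouse 1 only. Hes1 had 44.5 and 52.1 CPM, and the Wnt targets Lgr5 and Axin2 had under 3 CPM each.

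Of 20 ligands of NK cell receptors and MHC class I genes, 11 reached the level and 1 was enriched. This is near the 10.0% of all genes at the level that were. The gene was Nectin2, an adhesion ligand of DNAM-1 and TIGIT (656 and 677 CPM against 43.7 and 41.2 CPM). Pvr, which binds the same receptors, had 252 and 160 CPM and a log2 ratio of 2.20 and 1.81. B2m, the light chain of MHC class I, had 259 and 208 CPM against 1332 and 821 CPM, and 16 of the 20 genes were lower in both mice, as were 36.8% of all 27932 genes with a UMI. The NKG2D ligands Raet1d and H60b had no UMI in WT ductal cells, and Ulbp1 had under 1 CPM. Another, Raet1e, had 7.25 and 8.36 CPM against 5.05 and 2.49 CPM. Icam1, an adhesion ligand of the integrin LFA-1, had 290 and 252 CPM against 127 and 163 CPM.

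Immediate-early and heat shock genes were at high level in ductal cells as in the others. Of 30, 25 reached the level and 1 (Klf6) was enriched, with median log2 ratios of 0.25 and 0.09. Fos had 6181 and 6360 CPM against 5261 and 4796 CPM, and Atf3 6045 and 4638 CPM against 1552 and 1574 CPM. These genes are known to rise during enzymatic dissociation, and its part in their level was not tested. Of 22 cell cycle genes 18 were lower in both mice, against 36.8% of all genes. Mki67 had 1.35 and 3.82 CPM and Top2a 1.01 and 4.06 CPM, whereas Ccnd1, a G1 cyclin, had 1421 and 1152 CPM and was enriched. No chemokine or cytokine gene of 32 and no interferon-stimulated gene of 26 was enriched, where 1.02% of all genes were, so that these counts of 0 are near the background. Lower in both mice were 23 of the 32 and 24 of the 26, against 36.8% of all genes, and 6 and 2 were higher in both. Their median log2 ratios were -1.725 and -1.55 for the 32 genes and -1.76 and -1.47 for the 26. Among the chemokine and cytokine genes Tgfb2 had 248 and 211 CPM, with a log2 ratio of 2.30 and 1.80. Of 6 genes listed for reprogramming, 2 reached the level. Klf4 was one of them, at 186 and 180 CPM against 505 and 568 CPM in the other cells. Pou5f1 had 1.52 and 0.239 CPM, Sox2 and Nanog had no UMI, and the transactivator rtTA had 1 UMI in each WT mouse.

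Lists of other cell types are read beside the 1.02% of all genes and 10.0% of genes at the level that were enriched. The list of acinar genes had 1 enriched member of 25 (Nr5a2), the endothelial list 1 of 21 (Prox1) and the mesothelial list 2 of 10 (Krt19 and Krt7), all of which ductal cells are known to express. Through those 2 keratins the mesothelial list summed to 1344 and 1179 CPM in ductal cells against 415 and 231 CPM in the others. The endocrine, stellate, myeloid, lymphoid, erythroid and acute-phase lists had none. Their median log2 ratios ran from -5.44 to -0.13 in mouse 1. Dcn had 442 and 565 CPM in ductal cells, most of it in 1 group of cells described next.

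To see how ductal cells varied among themselves at equal depth, each cell was thinned to 1000 UMIs, which left out 82 cells of mouse 1 and 49 of mouse 2. Krt18 then had a UMI in 99.3% and 99.1% of ductal cells and Spp1 in 98.4% of both. Unthinned shares were 97.7% and 98.9% for Krt18. In thinned stellate cells (cluster Quiescent_Pancreatic_Stellate_1), which should lack both, the shares were 2.43% and 2.57% for Krt18 and 2.04% and 1.51% for Spp1. Other epithelial cells had more. Krt18 was in 57.2% and 45.9% of thinned acinar and 49.0% and 35.2% of thinned mesothelial cells. Spp1 was in 11.2% and 7.18% and in 14.3% and 9.86% of them. Dcdc2a had a UMI in 61.1% and 59.1% of thinned ductal cells (88.6% and 88.7% unthinned). It was in under 0.3% of thinned stellate cells, 0.658% and 0% of acinar and 6.12% and 4.23% of mesothelial cells. Krt17 was in 45.5% and 22.7%, against 61.6% and 36.9% unthinned. Of the 5 markers, Krt19 was in 58.7% (95% interval 54.9% to 62.5%) and 53.0% (48.8% to 57.1%), Sox9 in 30.6% and 31.1% and Cftr in 9.69% and 4.37% of thinned cells. At this depth 18.8% of the cells of mouse 1 and 7.34% of those of mouse 2 had none of the 5, and 1 cell had all 5. Epcam was in 20.3% and 73.6% and Krt7 in 13.3% and 20.5% of thinned cells of the 2 mice.

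The ductal cells were clustered again on their own, and at resolution 0.2 fell into 5 sub-clusters. The 2 largest followed the mouse. Sub-cluster 0 held 557 cells of mouse 2 and 79 of mouse 1, and sub-cluster 1 held 528 cells, all of mouse 1. They were led by genes that differed between the 2 libraries (Scand1, Pcbd2 and Hspb1 in sub-cluster 0; Mmd2, 1700049E15Rik and Srf in sub-cluster 1) and may be the libraries rather than kinds of cell. Within mouse 1, Mmd2 had 174 CPM in sub-cluster 1 against 45.2 CPM in the other ductal cells of that mouse. There 1700049E15Rik had 129 against 28.6 CPM and Srf 59.6 against 31.9 CPM. For sub-cluster 0 within mouse 1, Scand1 had 0 against 1.22 CPM, Pcbd2 0 against 2.96 CPM and Hspb1 97.6 against 12.4 CPM. Within mouse 2 these had 156 against 138, 108 against 84.96 and 773 against 747 CPM. Sub-clusters and genes were picked from the same counts, so none of these differences is independent of the choice. Library and kind of cell were not separated here. The 3 others were each made of cells of both mice.

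Sub-cluster 4 held 22 cells of mouse 1 and 17 of mouse 2, 2.92% and 2.74% of the ductal cells. It was led by Tmem212, Fam183b, Hydin, Dnah12, Armc4 and Iqca, genes of the axoneme and of motile cilia. Fam183b (chromosome 11, 58792797 to 58801960) had a UMI in 100% of its cells and in 2.77% of the other ductal cells, at 477 CPM in mouse 1 and 476 CPM in mouse 2 against 5.04 and 14.5 CPM. Hydin, a protein of the central pair of motile cilia, had 51.1 and 54.9 CPM against 0.348 and 0 CPM. Foxj1 had 494 CPM there and 22.9 to 82.5 CPM in the other 4 sub-clusters, and these 39 cells (2.84%) held 24.6% of its 573 ductal UMIs. Krt18 had a UMI in 100% of them, Sox9 in 82.1% and Spp1 in 82.1%, so that they carried ductal genes too. The endocrine list took 0.598% of their UMIs, against 0.0512% to 0.120% in the other 4 sub-clusters, and its part in this group was not tested. No marker list for multiciliated cells was among those used, and the group is named by its leading genes only.

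Of the 8 leading genes of sub-cluster 4, 7 had a RefSeq promoter entry, and 3 of these held GTTGCC, the core of the sites of RFX factors, which act on cilium genes, on either strand (14.1% of the RefSeq set did). So did 2 of 6 promoters of the genes that led sub-cluster 3, described next, so the letters were not particular to this group. Those of Fam183b (chr11:58801911-58802210, minus strand, 2 matches, 67 and 16 bases before the start) and Iqca (chr1:90153387-90153686, minus strand, 1 match, 100 bases before it) are shown, with the matches in capitals.
Fam183b: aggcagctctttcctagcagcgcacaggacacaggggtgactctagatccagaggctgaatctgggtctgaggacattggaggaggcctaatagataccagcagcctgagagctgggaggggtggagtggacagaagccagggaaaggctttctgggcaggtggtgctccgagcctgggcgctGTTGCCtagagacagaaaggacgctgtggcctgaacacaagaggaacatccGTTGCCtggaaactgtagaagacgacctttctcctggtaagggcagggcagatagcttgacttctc
Iqca: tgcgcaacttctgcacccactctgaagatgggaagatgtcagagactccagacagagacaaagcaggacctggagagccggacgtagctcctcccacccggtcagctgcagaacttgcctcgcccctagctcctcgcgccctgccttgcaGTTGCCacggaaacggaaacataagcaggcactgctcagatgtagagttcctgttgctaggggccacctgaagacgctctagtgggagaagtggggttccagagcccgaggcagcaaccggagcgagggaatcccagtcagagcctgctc

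Sub-cluster 3 held 66 cells of mouse 1 and 17 of mouse 2, 8.76% and 2.74% of their ductal cells, with a median of 9914 UMIs a cell. Sprr1a (a cornified envelope protein) had 368 and 597 CPM there against 1.81 and 10.9 CPM in the other ductal cells, Tspan8 296 and 263 CPM against 7.42 and 8.62 CPM, and Dclk1 (a kinase that marks tuft-like cells) 116 and 169 CPM against 3.61 and 9.13 CPM. Mmp7 had 138 and 321 CPM against 9.03 and 11.7 CPM, so that much of the Mmp7 of WT ductal cells lay in this group. Aqp1, low in ductal cells as a whole, had 141 and 61.7 CPM there. The endothelial list took 0.102% of the UMIs of sub-cluster 3, against 0.0298% to 0.0580% in the other 4, and the myeloid list 0.167%, against 0.0308% to 0.0390% in sub-clusters 0, 1 and 4. The part of such RNA in this group was not tested. Krt19 and Krt7 were at 2320 and 506 CPM in sub-cluster 3 and at 534 to 887 and 110 to 220 CPM in the other 4, while Ankrd1 was lower there, at 359 and 325 CPM, than in any other sub-cluster of the same mouse. Cftr had 24.3 and 12.3 CPM there, the lowest of the 5 in mouse 1 but not in mouse 2, where sub-cluster 4 had 9.16 CPM.

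Sub-cluster 2 held 58 and 30 cells and was led by Dcn (12798 and 7495 CPM against 16.2 and 61.7 CPM), Ccl11, Col3a1, Smoc2 and Col1a2. The stellate and mesenchymal list took 2.547% of its UMIs and 0.0144% to 0.0581% of those of the other 4. The myeloid list took 0.253%, against 0.0308% to 0.167% in the others. Ductal genes were also present, with a UMI of Krt18 in 90.9% and of Spp1 in 95.5% of its cells. Doublets were kept, and their part in this group was not tested.

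**Figure D3:**
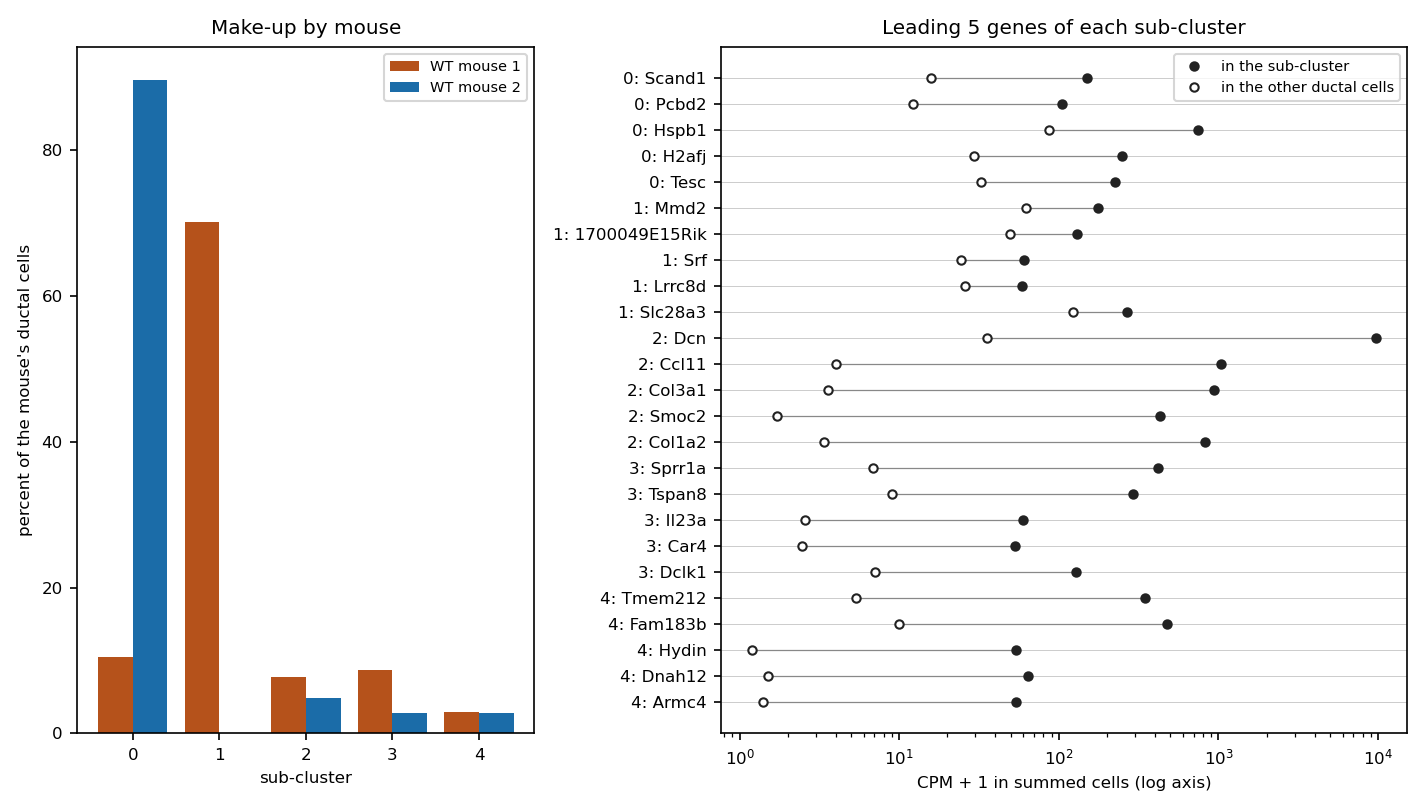
Left, the percent of each WT mouse's ductal cells in the 5 sub-clusters. Right, CPM plus 1 (log axis) of the leading 5 genes of each sub-cluster in its cells (filled) and in the other ductal cells (open). Sub-clusters 0 and 1 are made mostly or wholly of 1 mouse, and sub-clusters 2 to 4 of both.

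The 2 WT mice were then compared directly. Across the genes at the level the log2 CPM of their ductal cells correlated at r = 0.952 as a description over genes. Of 1794 genes with at least 100 CPM in either mouse, 39 (2.17%) were more than 4-fold higher in mouse 2 and 0 in mouse 1. Scand1 had 1.18 CPM in mouse 1 and 153 CPM in mouse 2, Hspb1, a small heat shock protein, 15.01 and 769 CPM, and H2afj, a histone variant, 6.07 and 257 CPM. In ductal cells of the i4F mice Scand1 had 106, 78.9 and 90.5 CPM, and in those of the caerulein mice 168 and 3.69 CPM. Hspb1 had 663, 581 and 512 CPM in i4F mice and 881 and 203 CPM in caerulein mice. Scand1 was thus low in WT mouse 1 and caerulein mouse 2, and Hspb1 was lowest in WT mouse 1. Of the 39 genes, 36 were also more than 2-fold higher in mouse 2 in the cells that are not ductal, where Scand1 had 0.0918 and 125 CPM and Hspb1 37.0 and 1195 CPM. Pcbd2, Mrps24, Chchd10 and Pgls behaved likewise, and so did Epcam (11.7 and 38.2 CPM in the other cells). Mouse and library cannot be told apart. Sst was different, with 2.36 and 158 CPM in ductal cells but 1951 and 1452 CPM in the others. Of its 662 UMIs in the ductal cells of mouse 2, 98.3% came from 1 cell of the 10 with a UMI. In the other direction the ratios were smaller, from -1.27 to -1.01 on the log2 scale for the 8 genes named by the rule. Zfp36 had 2424 and 1006 CPM, Krt17 1659 and 693 CPM and Plet1, a glycoprotein of epithelial progenitors, 432 and 208 CPM, and each was higher in mouse 1 in the other cells as well. With 1 library a mouse there is no test of these differences.

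**Figure D4:**
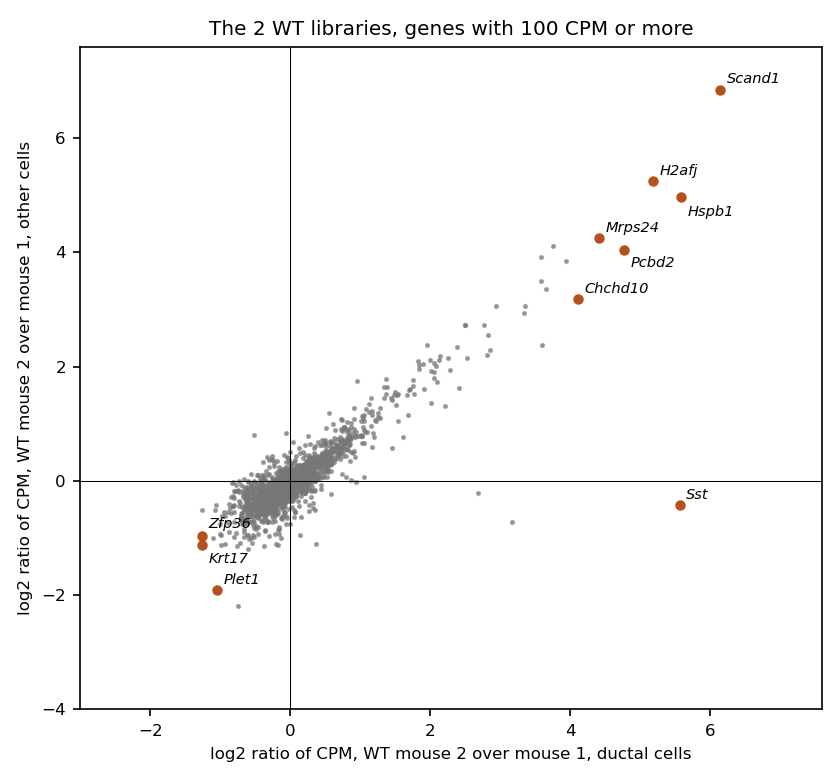
Log2 ratio of CPM, WT mouse 2 over WT mouse 1, in ductal cells (horizontal) and in all other WT cells (vertical), 1 point a gene for the 1794 genes with at least 100 CPM in the ductal cells of a mouse. Scand1 is far above 0 on both axes (6.15 and 6.85), whereas Sst is at 5.56 in ductal cells and at -0.43 in the other cells.

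WT ductal cells were last compared with those of the other mice. There were 238, 211 and 527 ductal cells in the i4F mice and 334 and 238 in the caerulein mice. Ductal cells made up 13.6% ± 5.36 (SD, n = 2) of the cells of WT mice, 3.97% ± 2.56 (SD, n = 3) of those of i4F mice and 2.79% ± 0.831 (SD, n = 2) of those of caerulein mice. Each WT mouse lay above each i4F and caerulein mouse. The exact two-sided permutation test gave p = 0.2 for i4F and p = 0.333 for caerulein, the smallest that these numbers of mice allow. Of cells outside the immune clusters, ductal cells were 14.7% in WT, 6.73% in i4F and 5.69% in caerulein mice. On this measure WT mouse 2, at 11.13%, and i4F mouse 3, at 11.02%, were nearly level. Among cells with at least 500 genes they were at 11.7% and 11.1%. A lower share can come from fewer ductal cells or from more of the other cells, which cannot be told apart here.

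UMIs were summed over the ductal cells of each mouse and tested with edgeR's quasi-likelihood test over 11619 genes. Between i4F and WT ductal cells 1 gene was higher (0.00861%) and 0 were lower (0%) at an adjusted p under 0.05, with 1174 and 842 genes at an unadjusted p under 0.05, and DESeq2 called 348 and 25. The 1 gene was the transgene rtTA, at 0.169 and 0.239 CPM in WT and 61.1, 90.01 and 101 CPM in i4F ductal cells (log2 fold change 8.56 ± 0.48 SE, edgeR adjusted p = 0.00313), so that rtTA went with the genotype labels. This call did not hold with the series of library names, described further on, as a term. i4F mouse 3 stood apart. Its ductal log2 CPM correlated at 0.934 and 0.954 with the WT mice and at 0.832 and 0.853 with the other i4F mice, as a description over genes. Without it 1536 genes (13.7%) were higher and 1430 (12.8%) lower in the 2 remaining i4F mice. With all mice kept, the counts were also larger without the filter on low counts, at 886 and 425. Mmp7 had 29.5 and 29.6 CPM in WT, 725 and 751 CPM in i4F mice 1 and 2 and 115 CPM in i4F mouse 3 (edgeR adjusted p = 0.190). Pkhd1 had 218 and 157 CPM in WT against 20.6, 28.4 and 125 CPM (edgeR adjusted p = 0.274).

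Between caerulein and WT ductal cells 335 genes were higher (2.88%) and 75 lower (0.645%), with 1785 and 1778 at an unadjusted p under 0.05. Leaving out either WT or either caerulein mouse left 0 to 2 genes higher and 0 lower, and with the library name series as a term no gene passed, so that no call given here or in the next paragraph held with that term. Of 22 cell cycle genes 17 were higher in caerulein ductal cells, that is lower in WT, and none was lower in the fit of all 7 mice. Mki67 had 1.35 and 3.82 CPM in WT and 106 and 124 CPM in caerulein mice (log2 fold change 5.66 ± 1.03 SE, edgeR adjusted p = 0.0294). Ube2c had 2.19 and 3.58 against 304 and 209 CPM, Cdk1 0.337 and 1.43 against 162 and 161 CPM, and Pclaf 0.337 and 0.716 against 143 and 112 CPM. Beside these the genes of largest change included Birc5, Ccnb1, the histone genes Hist1h2ae and Hist1h1b, Il1rn, and the myeloid genes Ccl6 and Trem2. Of 22 myeloid genes 9 were higher, and the myeloid list summed to 629 and 616 CPM in WT ductal cells and to 3247 and 2914 CPM in those of caerulein mice, beside 21604 and 17505 CPM in the other cells of the latter. The part of RNA from myeloid cells in this comparison was not tested. Without ductal cells that held UMIs of 2 or more genes of another cell type, which left 342 and 287 WT and 46 and 90 caerulein cells, no gene passed. Without those with over 2% of their UMIs on such a list 345 were higher and 71 lower.

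Of 35 genes of mucosal secretion and defence tested, 6 were higher in caerulein mice (Anxa3, C3, Lcn2, Mmp7, Muc20 and Wfdc18) and 1, Pigr, was lower. Lcn2 had 532 and 321 CPM in WT and 11939 and 11644 CPM in caerulein ductal cells (log2 fold change 4.97 ± 0.87 SE, edgeR adjusted p = 0.0293), and Mmp7 947 and 1047 CPM in the latter (log2 fold change 5.24 ± 0.85 SE, edgeR adjusted p = 0.0246). Pigr had 309 and 335 CPM in WT and 84.7 and 121 CPM in caerulein mice, and fell by 1.496 ± 0.32 SE on the log2 scale (edgeR adjusted p = 0.0473). The groups did not overlap in these 3 genes. The share of all genes in which 2 mice separate from 2 is not given here, so no weight is put on this. Higher in WT ductal cells were further Snorc (50.9 and 55.2 against 0.806 and 1.23 CPM), Rasl11a, Sned1, Gstm7, Clec3b, Ifit1, Arntl (a factor of the circadian clock), Alb, Otud1 and Iapp. Iapp is a hormone gene of endocrine cells, at 56.2 and 366 CPM in WT ductal cells. None of the 5 ductal markers passed in the fit of all 7 mice. Krt7 had 190 and 243 CPM in WT and 875 and 701 CPM in caerulein mice (log2 fold change 2.03 ± 0.46 SE, edgeR adjusted p = 0.0518), and Sox9 475 and 510 against 196 and 204 CPM (edgeR adjusted p = 0.0954). Of the 286 genes enriched in WT ductal cells 8 were lower and 2 higher, with a median log2 fold change of -0.84 against -0.07 over all genes. They were chosen for high values in the same WT libraries, so this is not independent of the choice. In the fluid (28 tested), keratin and junction (31), cilium (25) and NK ligand (14) lists no gene passed in the fit of all 7 mice. Over all genes tested 2.88% were higher and 0.645% lower. Counts of 0 in lists of this size, and among the 5 markers, are thus near the background. In the other lists Tead2, Ccl20, Cxcl16 and Rgs5 were higher, and Zfp36l1, Notch1, Dcn and Gsn were lower.

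Leaving out i4F mouse 3, which enters the fit through the shared spread, gave for caerulein 1808 higher (16.1%) and 1793 lower (16.0%). In that fit 18 of 21 cell cycle genes tested were higher and 3 lower, and of 35 mucosal and defence genes 19 were higher and 6 lower. Of 22 myeloid genes 18 were higher. Of 27 fluid genes tested 5 were higher and 6 lower, of 31 keratin and junction genes 3 and 7. Of 25 cilium genes 0 were higher and 11 lower, and of 14 NK ligand genes 1 and 4. Of the 5 markers 1 was higher and 1 lower, and of the 286 enriched genes 19 were higher and 152 lower. For i4F mice 1 and 2 against WT the same fit called 13.7% of all genes higher and 12.8% lower. There 17 of 21 cell cycle genes were higher and 2 lower, and 1 of the 5 markers was higher. Of the 286 enriched genes 15 were higher and 155 lower. These were chosen for high values in the same WT libraries, so neither count of lower genes is independent of the choice. Of 22 myeloid genes 17 were higher and 1 lower, of 21 stellate genes 11 and 2, and of 20 acinar genes 1 and 17. The part of RNA from other cell types was not tested. Fits without i4F mouse 1 or 2 were not made for the caerulein comparison. The library names form 2 series, AL (WT mouse 1 and the i4F mice) and AM (WT mouse 2 and the caerulein mice), and with the series as a term no gene passed for i4F either. Within series AM, WT mouse 2 and the caerulein mice had 3.82 against 106 and 124 CPM of Mki67 and 29.6 against 947 and 1047 CPM of Mmp7. Both genes were taken from those called between caerulein and WT, and WT mouse 2 is the only WT mouse of that series. The part of the series in these differences was not tested.

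The 8 leading genes of sub-cluster 4 were also followed in the other mice. A UMI of at least 3 of them was found in 27 of 753 (3.59%) and 26 of 621 (4.19%) WT ductal cells and in 1 other cell of each WT mouse. In i4F ductal cells the numbers were 0 of 238, 0 of 211 and 5 of 527, and in caerulein ductal cells 0 of 334 and 0 of 238. A count of 0, with 3 cells taken as the limit, allows up to 1.26%, 1.42%, 0.898% and 1.26% of cells with 3 of the genes detected. This limit covers counting of cells only, and cells that express the genes without a captured UMI are not in it. The median depth of caerulein mouse 1 was 5590 UMIs a ductal cell, like that of the WT mice, and that of i4F mouse 1 was 4187 UMIs. Those of i4F mouse 2, i4F mouse 3 and caerulein mouse 2 were 2667, 2672 and 2768 UMIs. The genes were picked in WT cells, and no test was made. For the 8 leading genes of sub-cluster 3 the shares were 5.84% and 2.58% in WT, 10.1%, 8.06% and 3.42% in i4F and 29.6% and 13.4% in caerulein ductal cells. Mmp7 is among these 8 genes. Over all ductal cells it had 29.5 and 29.6 CPM in WT, 725, 751 and 115 CPM in i4F and 947 and 1047 CPM in caerulein mice. The shares thus do not give the size of a group like sub-cluster 3, and this was not tested.

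**Figure D5:**
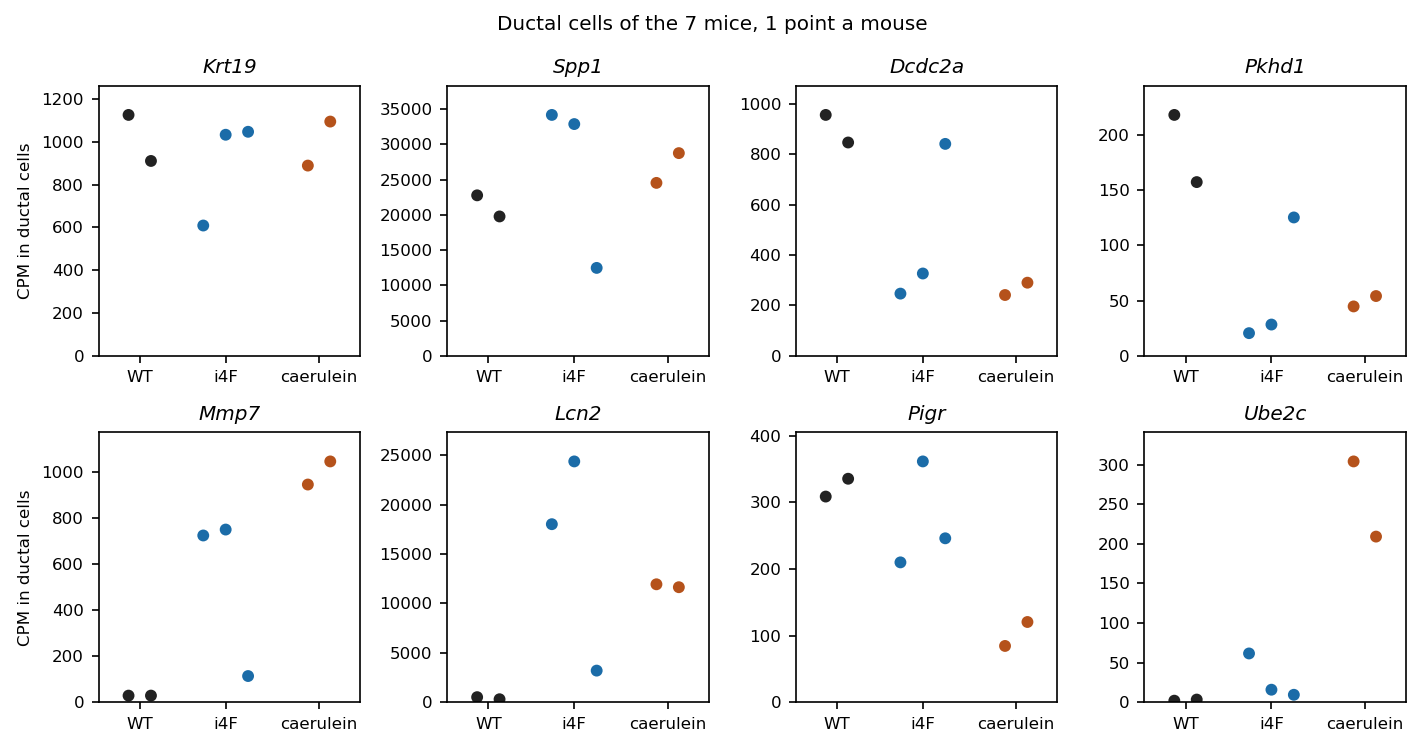
CPM of 8 genes in the summed ductal cells of each of the 7 mice, 1 point a mouse. Mmp7 lies at 29.5 and 29.6 CPM in WT and above 900 CPM in both caerulein mice, and i4F mouse 3, at 115 CPM of Mmp7, lies between the WT mice and the other i4F mice.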

How the data were processed

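The labels and the methods say that the libraries (10x Genomics 3′, v3) were aligned to mm10 with Cell Ranger and analysed in Seurat. As deposited by the authors, the values are raw UMI counts of each gene in each cell, and the methods name SoupX for the correction of ambient RNA, but not whether these tables precede it. The deposited metadata give each cell's library, cluster, total counts, number of genes and percent of mitochondrial UMIs. All counts were whole numbers whose sums equalled the deposited totals. Genes not listed in a table were read as 0.

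UMIs were summed per mouse over ductal cells, and CPM are relative to that sum. Conditions were compared in edgeR 4.0.16 by its quasi-likelihood test, taken on both sides (TMM, filterByExpr, all 7 mice, Benjamini-Hochberg adjustment, threshold 0.05, at least 20 cells a mouse), which was tested on simulated data. Sub-clusters came from Seurat's SCTransform (3000 variable genes, 20 principal components). Doublets were kept. Shares were compared with exact permutation tests. The genes named are list members, the 30 leading genes, up to 10 called genes per direction with a mean of 4 log2 CPM or more and groups that do not overlap, up to 8 genes per direction between WT mice, and 8 per sub-cluster. Genes named outside this rule were chosen after their values were seen. The members and lists were chosen with earlier results of these data known. DESeq2 1.42.0 was an alternative. Gene positions are those of GENCODE M21 and promoters those of RefSeq (GRCm38.p6). Some members of the lists are counted but not reported here by name.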

Additional observations from a re-analysis of the deposited data

How the results depend on the processing

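The count of 286 enriched genes was 266 with the other clusters weighted equally, 226 with 10 CPM added, 285 in cells with at least 500 genes, 285 without mixed cells, 289 without cells with over 2% of their UMIs on another type's list (an alternative chosen after seeing the data) and 325 to 375 on 1 mouse. It was 917 against acinar cells alone, 566 at 2-fold and 168 at 8-fold. The direction of the ductal share held in all alternatives run, at -8.01 to -12.4 percentage points for i4F and -9.05 to -15.0 for caerulein, and at -5.85 to -13.4 and -7.02 to -14.6 with a mouse left out.

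The counts between conditions moved under some settings. In the order i4F higher, i4F lower, caerulein higher, caerulein lower, they were 1, 0, 335 and 75. They were 1, 0, 300 and 110 without TMM, 1, 0, 368 and 66 in cells with at least 500 genes and 1, 0, 345 and 71 without cells over 2% on another list, and the 2 groups alone gave 1 and 0 for i4F. They were 348, 25, 831 and 308 with DESeq2, and 886, 425, 1355 and 1171 without the filter on low counts. The 2 groups alone gave 1763 higher and 1663 lower for caerulein. With the library name series as a term all 4 were 0, and without mixed cells the caerulein counts were 0 and 0. With a mouse left out the i4F counts ranged from 0 to 1536 higher and 0 to 1430 lower, and the caerulein counts from 0 to 2 higher and 0 lower. Without i4F mouse 3, a fit added after seeing the data, the caerulein counts were 1808 and 1793. The cause of these changes was not tested.

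With the replicate number as a block the counts were 1179, 1053, 1443 and 1292. The numbers do not pair the mice by their labels. Deviations of same-numbered mice correlated at -0.31 between WT and caerulein, at -0.14 and 0.01 between WT and i4F and at 0.12 and -0.04 between caerulein and i4F. With 2 mice in a group, as in WT and caerulein, their deviations are mirror images. Swapping the 2 numbers thus only turns the sign, to 0.31 between WT and caerulein. These correlations cannot show whether same-numbered mice share anything, and this was not tested otherwise. At resolutions 0.5 and 1.0 the ductal cells gave 8 and 11 sub-clusters, and at 0.5 the Sprr1a and Tmem212 groups held 85 and 41 cells. Only 2 WT mice limit all values.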

Other observations

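Ductal cells with few UMIs formed a group of their own when the clustering was made finer. At resolution 0.5, 143 cells (80 of WT mouse 1 and 63 of WT mouse 2, 10.6% and 10.1% of the ductal cells) had a median of 688 UMIs and were led by the acinar genes Spink1, Nupr1 and Dmbt1. At the same resolution 200 cells, 199 of them of WT mouse 2, were led by Iapp, Gch1, Cxcl2 and Cebpd, and 188 cells, all of WT mouse 1, by Fhl2, Ankrd1, Krt17 and Net1. At resolution 1.0 a group of 46 cells with a median of 583 UMIs was led by Il1b, Cd209a and H2-Aa, genes of antigen-presenting cells, 41 of them in WT mouse 1.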
